A study of Mus musculus with 11 samples.

Results

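The strongest 500 domain boundaries of a population Hi-C map of mouse Th1 cells are 50 kb positions across which few contacts passed. They were chosen on the ensemble, the map of a whole cell population. Insulation was the log2 of mean balanced contacts between the 500 kb on each side of a 50 kb bin, over the mean of the chromosome. Local minima of this track with a prominence (depth below the surrounding track) of at least 0.1 gave 3080 minima on chromosomes 1 to 19, and the 500 with the largest prominence are the members. The other 2580 minima are the set they are compared with. A further set of 2959 domain centres, the bins halfway between neighbouring minima, shows the level away from minima.

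In Hi-C, chromatin is cut with a restriction enzyme, cut ends that meet are ligated, and sequencing tells which were joined: a contact is such a ligated pair. The series holds 9 single Th1 cells cut with Bgl II, 1 single cell (cell 8) cut with Dpn II, and 1 ensemble map cut with Bgl II. Th1 cells are CD4+ helper T cells, here from spleens of male C57BL/6 mice, stimulated with anti-CD3, purified with anti-CD4 beads and expanded with IL-2, which all maps share. A pooled map of single cells (2294791 contacts) contains every contact of the 9 Bgl II cells, which make up 7.62% of it. It was used without them, with 2119836 contacts left, as a map of cells that the listed ones do not enter.

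The genome of mammals folds into domains, stretches of DNA whose parts meet each other more often than they meet the neighbouring stretch. A boundary is the place where such a domain ends. In mammals many boundaries carry the DNA-binding protein CTCF, at which the ring-shaped cohesin complex, which extrudes chromatin loops, tends to stop. Boundaries are also known to lie near active genes and at the borders between active and inactive compartments. In a population map a boundary is an average over many cells, and a single cell holds few contacts near any given one.

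The ensemble values that chose the members are a description. Their insulation had a median of -1.06 on the log2 scale (from -3.58 to 0.0861), and that of the other minima -0.312. Their prominence ran from 1.06 to 4.32, with a median of 1.45, against a median of 0.278 and a highest value of 1.06 at the other minima. There was no gap at the limit: prominence was 1.058 to 1.060 in the 5 members just inside and 1.055 to 1.057 in the 5 minima just outside. In the pool without the listed cells, 10.9% to 21.2% of contacts crossed the 5 just inside and 9.02% to 25.7% the 5 just outside. The ranges on either side of the limit overlap.

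Members were found on every autosome, with 1.63 per 10 Mb on chromosome 16, the lowest, and 2.61 per 10 Mb on chromosome 19, the highest. Chromosome 13 followed with 2.58, where 31 of 133 minima were members, and chromosome 16 had 16 of 138. Domains next to the members were long, with a median of 900 kb between a member and its neighbouring minimum (quartiles 700 and 1200 kb). At the other minima the median was 650 kb (450 and 950 kb). These distances come from the same ensemble track that ranked the members, so they are a description and were not tested. The median number of distinct Bgl II fragment ends seen in the ensemble in the 150 kb around a boundary was 87 at the members. At the other minima it was 82. A bin left out for low coverage lay within 500 kb of 17.0% of members and 19.9% of other minima.

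Compartments are large regions of like chromatin that contact each other. At 1 Mb resolution, each chromosome of the ensemble was split by its leading eigenvector into 2 classes. Class 1 is the one richer in distinct Bgl II fragment ends seen in the ensemble. Many members lay where the class changes. Of 497 members with a class on both sides, 260 (52.3%) had different classes 500 kb to the left and to the right, 176 (35.4%) had class 2 on both sides and 61 (12.3%) class 1. Of 2550 other minima, 351 (13.8%) had a change, 1634 (64.1%) class 2 and 565 (22.2%) class 1. Both measures come from the ensemble, so this is a description and was not tested. The share of all usable bins with a change was not counted, so the values compare members with other minima only.

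The comparison the design allows is whether contacts of single cells, which the choice of boundaries did not use, also avoid crossing these positions. For each position, cis contacts at least 50 kb apart with both ends within 500 kb were counted, leaving out the minimum bin. A crossing contact has an end on each side, a same-side contact has both ends on 1 side, and the crossing share is the percentage of crossing contacts among both kinds. Contacts whose windows cover several positions count at each. The cells held 8888 to 27915 autosomal cis contacts, and 275 to 738 of them per Bgl II cell fell in the windows of the members, 0.550 to 1.48 per boundary. A single boundary in a single cell therefore has about 1 contact, and each cell was read as a sum over boundaries. The labels do not say whether cells came from separate animals or cultures, so p-values measure the spread between these cells only, which may be technical.

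In every cell, contacts crossed the strongest 500 boundaries less often than the other minima. The crossing share at the members was 15.2% in cell 1, 12.9% in cell 2, 10.6% in cell 3, 17.5% in cell 4, 12.7% in cell 5, 8.75% in cell 6, 11.8% in cell 7, 13.8% in cell 9 and 15.2% in cell 10. At the other minima it was 24.8% in cell 1, 22.4% in cell 2, 23.0% in cell 3, 27.1% in cell 4, 22.5% in cell 5, 21.4% in cell 6, 24.4% in cell 7, 24.9% in cell 9 and 26.5% in cell 10. The highest member value (cell 4) lay below the lowest value of the other minima (cell 6), so the sets did not overlap in the 9 cells.

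The mean was 13.2% ± 2.64 (SD, n = 9) at the members and 24.1% ± 1.92 at the other minima. The difference was -10.96 points ± 1.36 (SD, n = 9). It was below 0 in 9 of 9 cells, and cells 6 (-12.7) and 2 (-9.57) held the extremes. The exact sign-flip permutation test over the 9 cells (two-sided) gave p = 0.00391, the smallest it can give, and 0.00547 after Benjamini-Hochberg adjustment over 7 tests. The share at the members was 0.542 ± 0.0760 (SD, n = 9) of that at the other minima, with 0.408 in cell 6 as the lowest and 0.644 in cell 4 as the highest value. At domain centres the mean was 33.3% ± 1.70 (SD, n = 9). With boundaries called from an unbalanced ensemble the difference was -6.98 points, and with a call window of 1 Mb -6.64 points, below 0 in 9 of 9 cells in both.

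**Figure D1:**
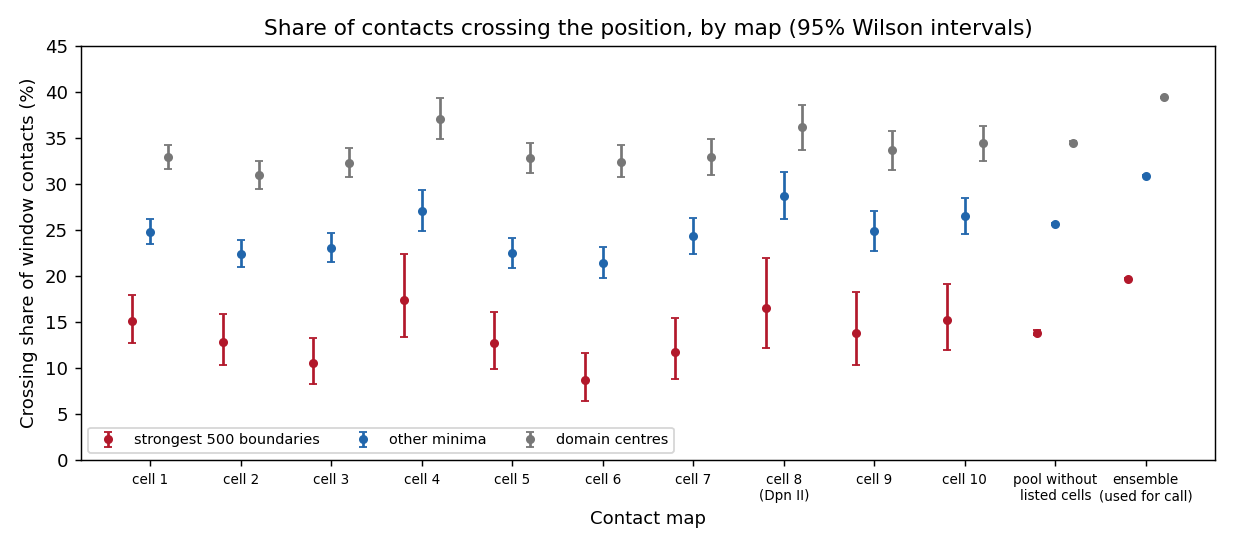
Crossing share (%, vertical axis) at the strongest 500 boundaries, the other minima and domain centres in each contact map (horizontal axis), with 95% Wilson intervals, which cover counting error only. In each map the members are lowest, the other minima between, and the domain centres highest; the ensemble chose the boundaries and is shown as a description.

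Cell 8, cut with Dpn II, had 37 crossing contacts among 224 at the members, 16.5% (95% Wilson interval 12.2 to 21.9), and 28.7% (26.3 to 31.3) at the other minima. Its difference, -12.2 points, was inside the range given above, although another enzyme gave its fragment ends. In the pool without the listed cells, 8109 of 58480 contacts crossed the members, 13.9% (13.6 to 14.1), and 25.7% (25.5 to 25.8) the other minima, a difference of -11.8 points. The ensemble, on which the choice rested, had 19.7% at the members and 30.9% at the other minima. The ensemble and the pool list each pair of ends once, so pairs joined in several cells count once.

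The extremes at the members were cell 4 with 17.5% (95% Wilson interval 13.4 to 22.4) and cell 6 with 8.75% (6.49 to 11.7), and whether cells differ beyond counting error was not tested. Cell 4 was also the highest Bgl II cell at the other minima and at domain centres (37.1%), and cell 6 was the lowest at the other minima.

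Both parts of the share differed between the sets. Summed over the 9 Bgl II cells, a member had 1.07 crossing and 7.15 same-side contacts on average, against 1.998 and 6.36 at another minimum and 2.91 and 5.92 at a domain centre. The counts per position in the pool without these cells were 16.2 crossing and 100.7 same-side at the members, and 30.7 and 88.8 at the other minima. The total in the window was close, 116.96 contacts per member and 119.5 per other minimum, so the depth behind the shares was close. In the 9 Bgl II cells, crossing contacts were also counted per possible pair across the boundary of Bgl II fragment ends seen in the ensemble. By this measure the members had 0.494 of the level at the other minima, from a mean log2 ratio of -1.02 over the cells.

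**Figure D2:**
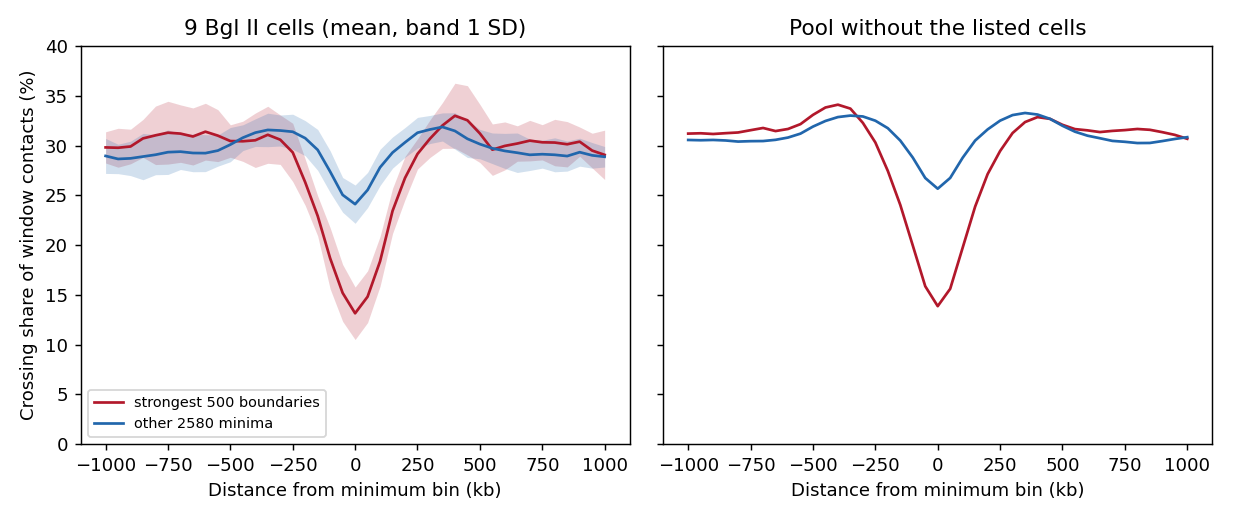
Crossing share (%, vertical axis) of windows centred up to 1000 kb on either side of the minimum bin (horizontal axis, kb), for the strongest 500 boundaries and the other 2580 minima. Left, mean of the 9 Bgl II cells with a band of 1 SD, and right, pool without these cells. Both dips are deepest at offset 0, where the members fall to 13.2% in the cells, and both curves lie near 30% at 1000 kb.

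The dip was narrow. In the Bgl II cells the share at the members was 13.2% at the minimum bin, 26.3% ± 2.33 (SD, n = 9) at 200 kb to the left and 26.7% ± 2.17 at 200 kb to the right. At 400 kb it was 30.5% to the left and 32.99% to the right, and at 1000 kb 29.8% and 29.1%. At the other minima it was 24.1% at the minimum bin, 30.7% and 30.3% at 200 kb, and 28.95% and 28.9% at 1000 kb. Away from the minimum bin the sets thus came close to each other. The 500 kb windows smooth these profiles, so their width is in part that of the window.

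**Figure D3:**
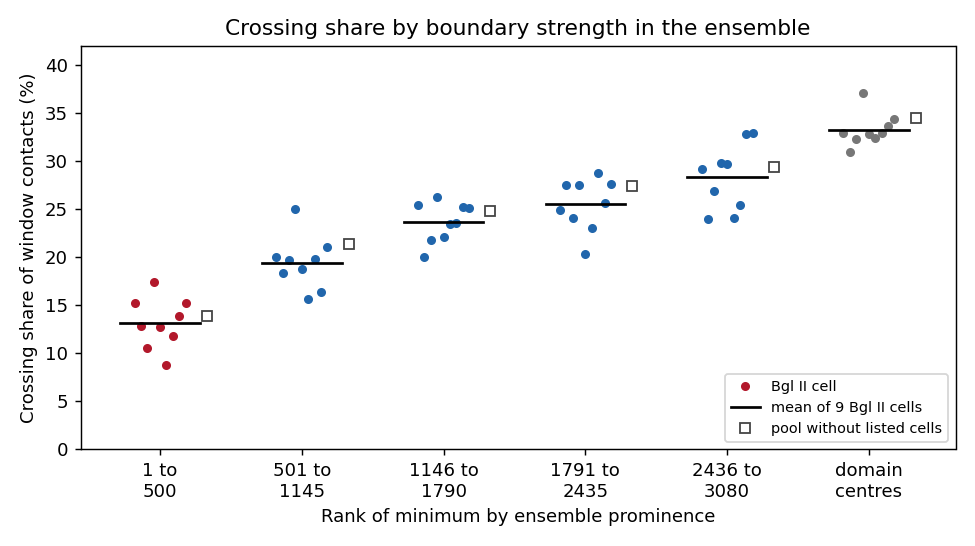
Crossing share (%, vertical axis) in the 9 Bgl II cells (points, bar at the mean) and the pool without them (open squares), for minima grouped by rank of ensemble prominence and for domain centres (horizontal axis). The mean climbs from 13.2% at ranks 1 to 500 to 28.3% at ranks 2436 to 3080, below the 33.3% of domain centres.

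The means of the cells lay in the order of the ensemble's ranks. The mean crossing share of the Bgl II cells was 13.2% at ranks 1 to 500, 19.4% ± 2.74 (SD, n = 9) at ranks 501 to 1145, 23.7% ± 2.06 at ranks 1146 to 1790, 25.5% ± 2.69 at ranks 1791 to 2435 and 28.3% ± 3.43 at ranks 2436 to 3080. Over the cells, the ranges of neighbouring groups overlapped. Cells 3, 4, 9 and 10 kept the order of the ranks, while cells 1, 2, 5, 6 and 7 each had a group above the next. The same groups had 13.9%, 21.4%, 24.8%, 27.4% and 29.4% in the pool without these cells. Across single boundaries with at least 50 contacts in that pool, ensemble and pool crossing shares had Pearson r = 0.712 and Spearman rho = 0.714 over 496 members, and 0.719 and 0.736 over 2529 other minima. Ensemble prominence, which set the ranks, was less closely related to the pool crossing share. Its Spearman rho was -0.475 over these members and -0.418 over these other minima. Boundaries share the libraries and are not replicates, so no p is given.

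Contacts of other lengths were read by counting, for each class of distance, those that span a position. In the Bgl II cells the members were spanned less than the other minima by contacts of up to 5 Mb, and no difference was detectable between 5 and 10 Mb. Spanning contacts per member over those per other minimum had a mean ratio of 0.564 ± 0.0753 (SD, n = 9) between 100 and 500 kb and 0.544 ± 0.122 between 500 kb and 1 Mb. The ratio was 0.711 ± 0.0982 between 1 and 2 Mb and 0.904 ± 0.0505 between 2 and 5 Mb. In each of these 4 classes the ratio was below 1 in 9 of 9 cells (exact sign-flip permutation test, two-sided, p = 0.00391 and adjusted p = 0.00547 in each). Between 5 and 10 Mb it was 1.02 ± 0.0547 (SD, n = 9), with the extremes in cell 9 (0.916) and cell 2 (1.09), and above 1 in 6 of 9 cells (exact permutation p = 0.355, adjusted 0.415).

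**Figure D4:**
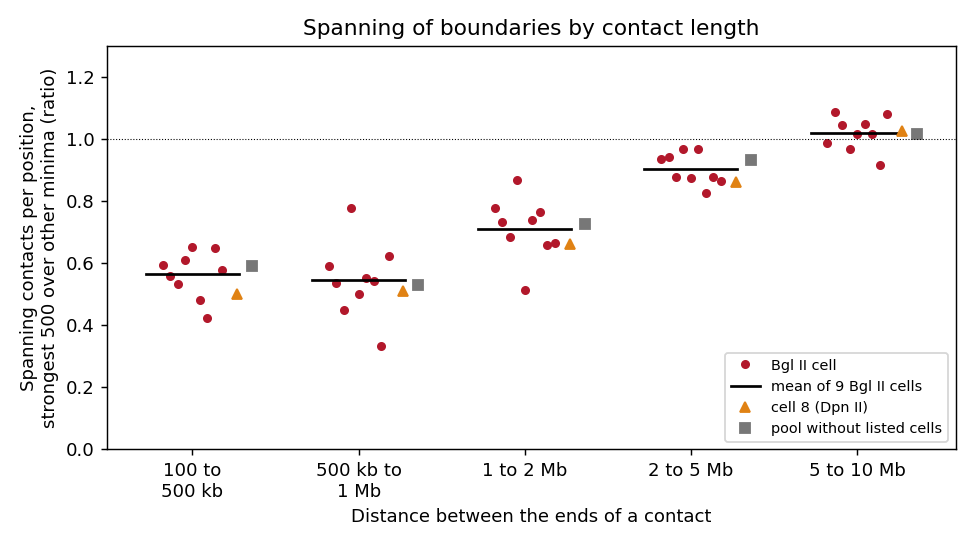
Ratio of spanning contacts per position at the strongest 500 boundaries over the other minima (vertical axis) by distance between the ends of the contact (horizontal axis), for each Bgl II cell, their mean, cell 8 and the pool without the listed cells. The means go from 0.564 at 100 to 500 kb to 1.02 at 5 to 10 Mb, with the dotted line at 1.

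The pool without the listed cells had ratios of 0.591, 0.530, 0.726, 0.932 and 1.02 in order of length, and cell 8 had 0.5002, 0.510, 0.660, 0.861 and 1.03. The ensemble, on which the boundaries were chosen, had 0.743, 0.699, 0.911, 1.098 and 1.13, so there the members were spanned more often than the other minima by contacts of 2 to 10 Mb. Between 2 and 5 Mb this is the opposite direction to that in the cells and the pool. Spanning counts were not corrected for local depth, which differed between the sets in the ensemble. Its 500 kb windows held 1454 contacts per member and 1336 per other minimum, against 116.96 and 119.5 in the pool without the listed cells. Whether depth underlies the ensemble's ratios was not tested. Relative to all usable bins, the Bgl II cells spanned the members at 0.404 ± 0.0643 (SD, n = 9) of the mean between 100 and 500 kb, and the other minima at 0.716 ± 0.0571. Between 1 and 2 Mb the values were 0.716 at the members and 1.01 at the other minima, so there the mean of the other minima matched that of all bins and the members lay below it.

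Because many members sit where the compartment class changes, the crossing shares were also read within each kind of place. Where the class changes, the Bgl II cells had 11.5% ± 3.59 (SD, n = 9) at 260 members and 19.3% ± 2.54 at 351 other minima. With class 1 on both sides they had 11.9% ± 3.98 at 61 members and 21.3% ± 3.12 at 565 other minima. With class 2 on both sides they had 16.3% ± 5.30 at 176 members and 27.6% ± 2.09 at 1634 other minima. The difference was -7.83 points, -9.39 points and -11.3 points in that order, below 0 in 9 of 9 cells in each kind (exact sign-flip permutation test, two-sided, p = 0.00391 in each, chosen after the data were seen). The pool without these cells gave 12.7% at members with a class change, 14.1% with class 1 and 15.7% with class 2 on both sides, and 22.5%, 22.1% and 28.9% at the other minima.

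Contacts between chromosomes (trans contacts) were not used by the choice of boundaries. Of contact ends in the 150 kb around the members, 17.3% ± 7.41 (SD, n = 9) were in trans contacts, against 17.3% ± 6.76 around the other minima and 17.9% ± 6.63 around domain centres. The difference between members and other minima was -0.00342 points ± 1.07 (SD, n = 9), with -1.36 in cell 9 and 1.36 in cell 4 as the extremes, and below 0 in 5 of 9 cells (exact sign-flip permutation p = 0.984, adjusted 0.984). In cell 8 the shares were 19.02% (16.5 to 21.8) and 20.7% (19.4 to 22.0). The pool without the listed cells had 18.99% (18.8 to 19.2) and 19.6% (19.5 to 19.7), a difference of -0.599 points with intervals that do not overlap. The ensemble had 48.8% (48.7 to 48.9) around the members and 50.3% (50.31 to 50.36) around the other minima, a difference of -1.54 points. Both of these maps were thus slightly lower around the members, while the cells showed no detectable difference. Where the class changes, the pool without the listed cells had 19.3% around members and 19.6% around other minima. With class 1 on both sides it had 21.9% and 24.3%, and with class 2 on both sides 17.34% and 17.37%. The pool and the ensemble are 1 map each and were not tested.

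Each boundary was next read by itself. In the pool without the listed cells the members had a median of 115 window contacts, and their crossing share had a median of 13.5% (quartiles 9.79% and 18.3%), against 26.8% (21.1% and 32.6%) at the other minima. A share at least 1.5-fold below the median domain centre (34.4%) was found at 466 of 500 members, against 42.7% of all 3080 minima and 17.7% of all usable bins. It was found at 848 of 2580 other minima. The insulation of the pool without the listed cells was taken from contacts that were not balanced. Bins that no contact crossed have no value in this track and cannot be its minima. The track had a minimum of its own within 100 kb of 480 members, but such minima were dense. Of all ensemble minima 87.8%, and of all 44796 usable bins 68.4%, had one as near. Pool minima with a prominence of at least 0.3 lay within 100 kb of 465 members (93.0%) and of 1677 of 2580 other minima (65.0%), where 40.6% of usable bins had one.

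**Figure D5:**
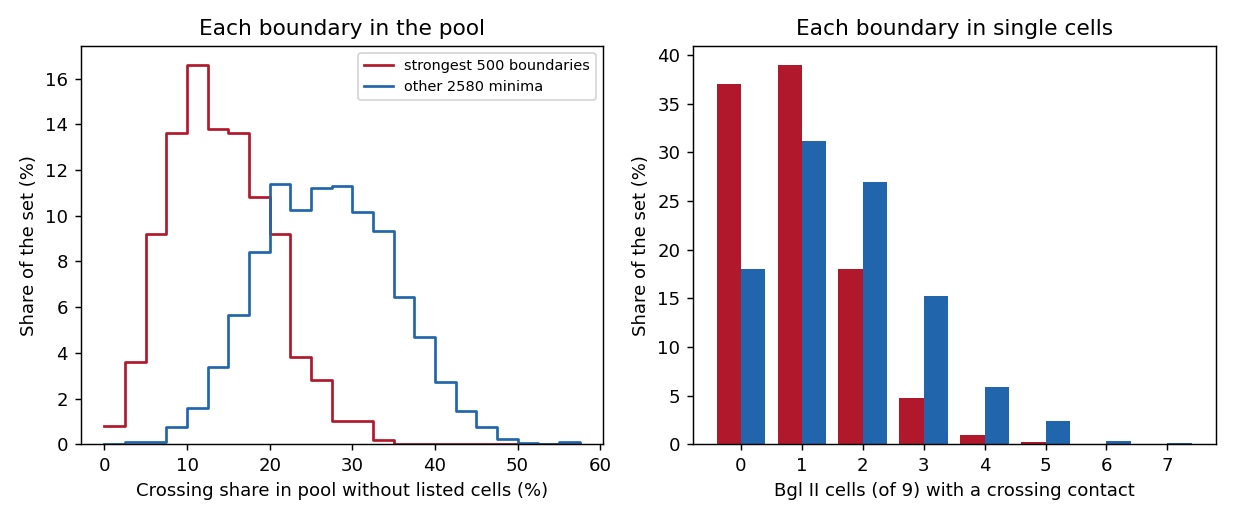
Left, share of the set (%, vertical axis) by crossing share in the pool without the listed cells (%, horizontal axis) for the strongest 500 boundaries and the other 2580 minima. Right, share of the set by the number of Bgl II cells, of 9, with at least 1 crossing contact at the boundary. The members' median is 13.5% in the pool, and 37.0% of them were crossed in no cell.

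In single cells, 185 members (37.0%) had no crossing contact in any of the 9 Bgl II cells, 195 (39.0%) had one in 1 cell, 90 in 2 cells, 24 in 3, 5 in 4 and 1 in 5 cells. Of the other minima 464 (17.98%) were crossed in no cell and 804 (31.2%) in 1 cell, and the most was 7 cells. Both sets had a median of 8 window contacts over the 9 cells, so a boundary with no crossing contact here is one where none was detected at this depth. Of 2570 combinations of a cell and a member with any window contact, 472 (18.4%) had a crossing contact, against 33.8% of 12882 combinations at the other minima. Of those 472, 258 (54.7%) also had a same-side contact in the same cell, and 52 (11.02%) had several crossing contacts, up to 4. Of the 4352 at the other minima, 2246 (51.6%) also had a same-side contact and 681 (15.6%) had several crossing contacts, up to 5. Autosomes are present in a maternal and a paternal copy, which the contacts do not tell apart, so crossing and same-side contacts of a cell can come from different copies.

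The 10 members with the largest prominence (3.17 to 4.32 in the ensemble) all lay at a change of class. Among members with a class on both sides, 52.3% did. Contacts crossed the 10 little in the cells too. The deepest is on chromosome 10 from 7300001 to 7350000 (mm9), between domains of 950 and 1200 kb. It was crossed by 4 of 101 contacts (3.96%, 95% Wilson interval 1.55 to 9.74) in the pool without the listed cells, and in the 9 Bgl II cells 1 of 8, a contact of cell 1. That pool had no minimum of its own within 100 kb of this boundary, where its insulation was -4.19. The second, on chromosome 12 from 70200001 to 70250000, had 5 of 136 in that pool (3.68%, 1.58 to 8.32) and 0 of 10 in the cells. The third, on chromosome 7 from 135900001 to 135950000, had 3 of 120 (2.5%, 0.854 to 7.09) and 1 of 13, a contact of cell 2 among its 2 there.

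Those on chromosome 10 from 62850001 to 62900000 and chromosome 5 from 125950001 to 126000000 had 16 of 137 (11.7%) and 6 of 104 (5.77%) in the pool without the listed cells, and 0 of 15 and 0 of 9 in the cells. The first of these had window contacts in 9 of 9 Bgl II cells, and none crossed. Chromosome 3 from 90500001 to 90550000, with a domain of 1450 kb on its left and 150 kb on its right, had 0 of 114 contacts crossing in that pool, which allows a share of up to 2.63%, yet 1 of 11 in the cells, from cell 1. It was the 1 member with no crossing contact there. Chromosome 10 from 126300001 to 126350000 had 7 of 110 in that pool and 0 of 5 in the cells, chromosome 1 from 75550001 to 75600000 7 of 113 and 0 of 6, and chromosome 9 from 46100001 to 46150000 9 of 137 and 0 of 7. Chromosome 4 from 61850001 to 61900000, beside a domain of 3050 kb, had 2 of 82 in the pool and 1 of 4 in the cells. Within 500 kb of it 3 bins were left out for low coverage, as were 2 near the member on chromosome 3 and 1 each near the deepest and the second; the other 6 had none. Together the 10 had 4 crossing contacts among 88 in the Bgl II cells, and 6 of the 10 were crossed in none. As these are the extremes of the ensemble, the values are a description.

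Of members with at least 50 contacts in the pool without the listed cells, the 5 with the lowest crossing share there (0% to 2.5%) all had a change of class. Of these, 3 are among the 10 above, on chromosomes 3, 4 and 7. The other 2 are on chromosome 11 from 93700001 to 93750000 (2 of 122, 1.64%), where the cells had 0 of 8, and on chromosome 18 from 36950001 to 37000000 (2 of 119, 1.68%), where they had 1 of 9. Their ranks in the ensemble were 45 and 16.

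The 5 members with the highest share in that pool (30.8% to 33.8%) lay just below the median domain centre of the same pool, 34.4%. They are on chromosome 16 from 62950001 to 63000000 (26 of 77, 33.8%), chromosome 8 from 51350001 to 51400000 (22 of 68, 32.4%), chromosome 2 from 125150001 to 125200000 (30 of 95, 31.6%), chromosome 7 from 114100001 to 114150000 (24 of 78, 30.8%) and chromosome 1 from 6100001 to 6150000 (20 of 65, 30.8%). Their ensemble prominence was 1.15 to 1.36, in the lower part of the members' range, and their ensemble crossing shares were 33.6%, 30.6%, 29.9%, 26.8% and 32.9%, all below the 39.4% of domain centres summed in the ensemble. In the Bgl II cells 1 of 4, 0 of 3, 3 of 9, 0 of 2 and 5 of 8 contacts crossed in the same order, 9 of 26 in all. The 5 at the last of them came from 4 of the 4 cells with contacts there.

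The member crossed in most cells is on chromosome 19 from 15900001 to 15950000, at rank 269, with class 2 on both sides and domains of 950 kb on each side. Of its window contacts, 2 of 4 crossed in cell 1, 1 of 3 in cell 3, 1 of 2 in cell 5, 1 of 3 in cell 7 and 1 of 2 in cell 10, and 0 of 2 each in cells 2 and 4, while cells 6, 8 and 9 had none. In all 6 of 18 contacts crossed in 5 of 7 cells, and 26 of 121 (21.5%, 15.1 to 29.6) in the pool without the listed cells, above the members' median of 13.5%.

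Where members followed each other along a chromosome, both ends of the domain between them were strong boundaries. In 81 such neighbouring pairs 300 kb to 2000 kb apart, the 150 kb around a boundary met the 150 kb around the next in 244 contacts of the pool without the listed cells, against 103.8 expected from the mean of all usable bin pairs at the same distance (ratio 2.35). In 781 pairs with 1 member the ratio was 1.31, and in 1896 pairs of other minima 1.16. In the 9 Bgl II cells summed the ratios were 2.62 (18 contacts against 6.87), 1.45 and 1.13, and in the ensemble 1.92, 1.20 and 1.06. The median distance was 1150 kb in pairs of members, 850 kb with 1 member and 650 kb with none. Neighbouring minima have no other minimum between them, while the bin pairs behind the expected value were not chosen in that way. Nor was the expected value matched for depth at the boundaries. The ratios therefore do not isolate contact between boundaries from the choice of pairs, and they were not tested.

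Coordinates are those of the minimum bin on mm9. No gene or sequence is given for a boundary, as no genome or annotation of that build was used here.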

How the data were processed

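Hi-C contacts were measured in 10 single cells, a pool and an ensemble. The authors' deposited files hold positions in bp, 1 line per contact with a chromosome and coordinate for each end, per the file headers. Positions are on mm9, per the submitters' processing notes. Aligner and read filters: not given in the sources used here. In cell 8, 3 lines with another chromosome were left out.

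Members and lists were chosen with earlier results of these data known. Scripts ran on numpy 2.4.6 and pandas 2.3.3, with scipy 1.17.1, in Python 3.11.15, and figures on matplotlib 3.10.9. Each chromosome's ensemble cis matrix was balanced in 50 iterations, without bins whose row sum was under 0.2 of the median. Insulation needed at least 0.5 of the pixels in the window.

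Tests were exact sign-flip permutation tests over the 9 Bgl II cells, with boundaries summed within a cell, at a threshold of 0.05. The counting code was checked on simulated contacts. Intervals are 95% Wilson intervals for counting error only. They treat counts as independent, although a contact can count at several positions, so those for sets of positions can be too narrow. Where a count was 0, the limit is 3 counts of the total. Named boundaries were the 10 of largest prominence, the 5 lowest and 5 highest in the pool (at least 50 contacts), and the member crossed in most cells. Alternatives were other windows, distances, calls, sets and cells.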

Additional observations from a re-analysis of the deposited data

Results flagged for a closer look

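Over the 9 Bgl II cells, 11 quantities were checked (crossing shares and their differences, trans shares and spanning ratios), and 0 had a cell far from the others by Dixon's criterion, for which chance gives about 1 in 20.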

How the results depend on the processing

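The difference in crossing share between the strongest 500 boundaries and the other minima stayed below 0 in every cell, with an exact permutation p at or under 0.00391, in all 18 alternatives that kept the 9 or took all 10 cells. In points it ran from -20.1 with domain centres in place of the other minima to -6.64 with an insulation window of 1 Mb for the call, and it was -6.98 with boundaries called without balancing. These 3 differ from -10.96 by more than 1.5 times, and the cause was not tested. With minima that have no other minimum within 500 kb (387 members, 1159 others, chosen after the data were seen) it was -9.72, and with no bin left out for low coverage within 500 kb (415 and 2066) -10.4. Leaving out 1 cell at a time gave -11.1 to -10.7 points, with an exact permutation p of 0.00781 each, the smallest for 8 cells. On the log2 scale the spanning ratio was -0.865 to -0.787 between 100 and 500 kb, -0.979 to -0.826 up to 1 Mb, -0.542 to -0.448 up to 2 Mb, -0.161 to -0.132 up to 5 Mb and 0.0123 to 0.0432 up to 10 Mb, and the trans difference -0.173 to 0.166 points. Counts of members near a pool minimum were 480, 433 within 50 kb and 465 at a prominence of 0.3. The differences were taken within each cell, so the test over cells is paired by cell. Between Bgl II cells and the other maps no blocked fit was made, as cell numbers only name cells and the ensemble is 1 map. Depth limits single boundaries in single cells to about 1 contact.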

Other observations

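The X chromosome, which lies outside the rule and is present in a single copy in male cells, had 42 minima with an ensemble prominence at or above the lowest of the strongest 500 boundaries (1.06). In the 9 Bgl II cells summed, 23 of 142 contacts crossed them, 16.2% (95% Wilson interval 11.04 to 23.1), against 242 of 856, 28.3% (25.4 to 31.4), at 288 shallower X minima. The autosomal values summed in the same way were 12.97% (11.98 to 14.03) at the strongest 500 and 23.9% (23.3 to 24.5) at the other minima. In the pool without the listed cells the X values were 16.8% (15.0 to 18.6) and 28.8% (27.9 to 29.6). In cell 8, 6 of 15 contacts crossed the deep X minima and 16 of 56 the shallower ones. X and autosomes were not tested against each other.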
